A study of Mus musculus with 8 samples.

Results

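Lower glycolysis is the run of enzymes from aldolase to lactate dehydrogenase, and 10 mouse genes for these steps were examined here: Aldoa, Tpi1, Gapdh, Pgk1, Pgam1, Pgam2, Eno1, Eno3, Pkm and Ldha. The set is defined by gene symbol, and a gene's row is the row of the deposited array table whose platform annotation carries that symbol. Of the 10 genes, 9 had a row, 1 row each, among 22206 rows in all. No row used here carried the symbol Eno1, so that gene has no value in what follows.

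Left ventricles of 8 male mice were measured on 8 Affymetrix arrays, 1 array per mouse. The 4 miR-100 overexpressing mice were Cre positive and heterozygous for the conditional miR-100 allele (miR100flox/+), from a cross of the Myh6-Cre line to miR-100flox/flox mice. The other 4 mice were wild type. All 8 were C57/BL6J mice aged 8 weeks and untreated. The Myh6 promoter drives Cre in heart muscle cells, so other cells of the ventricle are not expected to recombine the allele, and the ventricle was measured as a whole. The labels name no Cre and no conditional allele for the wild type mice, so the presence of Cre and the raised microRNA cannot be told apart here.

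Glycolysis splits glucose into pyruvate in the cytosol and yields ATP without oxygen. Aldolase cuts the six-carbon sugar into a pair of three-carbon sugars, and the enzymes after it oxidise these and pass their phosphate to ADP. The adult heart draws most of its ATP from fatty acids, and its glycolytic share is known to grow in the fetal heart, under load and when oxygen is short. Several of these steps have a widely expressed isoform and a striated muscle isoform, such as Pgam1 and Pgam2 for phosphoglycerate mutase and Eno1 and Eno3 for enolase.

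The microRNA that the cross was made to overexpress is shown first. The mature strand lies in the microRNA gene Mir100 on mouse chromosome 9 (GRCm38.p6, chr9:41531437-41531458, plus strand, RefSeq), and capitals mark its seed, bases 2 to 8.
mmu-miR-100-5p: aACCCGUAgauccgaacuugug
The pair of phosphoglycerate mutase genes held the largest and the smallest measured difference of the 9 genes, and the 250 bases before the RefSeq start of each are shown for that reason. The Pgam1 stretch lies on chromosome 19 (GRCm38.p6, chr19:41911621-41911870, plus strand), and capitals mark the core of the hypoxia response element, ACGTG or GCGTG, on either strand. The Pgam2 stretch lies on chromosome 11 (GRCm38.p6, chr11:5803797-5804046, minus strand), and capitals mark a core of the muscle factor MEF2, written as TA, then 4 bases that are each A or T, then TA, on either strand.
Pgam1: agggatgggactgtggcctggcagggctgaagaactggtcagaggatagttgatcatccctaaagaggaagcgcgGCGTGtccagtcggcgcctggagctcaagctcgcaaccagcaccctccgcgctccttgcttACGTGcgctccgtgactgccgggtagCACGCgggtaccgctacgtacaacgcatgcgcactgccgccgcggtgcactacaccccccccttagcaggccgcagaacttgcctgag
Pgam2: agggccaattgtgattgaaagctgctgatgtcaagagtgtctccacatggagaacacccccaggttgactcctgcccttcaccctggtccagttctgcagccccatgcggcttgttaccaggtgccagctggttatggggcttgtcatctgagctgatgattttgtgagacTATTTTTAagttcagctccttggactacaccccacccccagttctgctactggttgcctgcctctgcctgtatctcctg
The Pgam1 stretch held 3 separate hypoxia cores and no MEF2 core, and the Pgam2 stretch held 1 MEF2 core and no hypoxia core. Neither held CATTCC, the core of the muscle MCAT element, on either strand. Of 32851 RefSeq start windows of the same length, 38.6% held a hypoxia core, 8.56% a MEF2 core and 12.6% CATTCC. All 10 genes matched, with 16 windows in all, of which 12 held a hypoxia core, 3 a MEF2 core and 4 CATTCC. Tpi1 and Pgam2 had no hypoxia core. These are matches of letters and were not tested as binding sites.

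The arrays were alike, with correlations between 0.988 and 0.993 over all rows and medians between 5.70 and 5.74 on the log2 scale. On the first principal component miR-100 replicate 2 scored 30.8, against 8.96 to 13.5 for the other miR-100 arrays, and wild type replicate 2 scored -38.2, against -13.0 to -3.49 for the other wild type arrays. The groups did not overlap on this component, which held 21.7% of the variance. Each array numbered 2 lay apart within its group, and results without either are given below. The tissue label fits its markers: the 9 heart muscle genes measured were bright, and the dimmest of them, the calcium release channel gene Ryr2, averaged 15.70 in miR-100 hearts and 15.49 in wild type hearts. None of the 9 passed. No row carried the name of the microRNA, so its own level was not measured.

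No measured lower glycolysis gene passed the test between miR-100 and wild type hearts, like nearly all rows of the table. To pass, a gene of the 9 needed a difference of 0.75 to 0.96 (log2), so smaller changes could be missed. The 9 measured genes differed by -0.12 to 0.58 on the log2 scale (miR-100 overexpressing minus wild type), with a median of 0.08, and 8 of the 9 were above 0. Across all rows 46.5% of differences were above 0, and 51.4% in the brightest 10% of rows, which hold 8 of the 9 genes. By limma with Benjamini-Hochberg adjustment over all 22206 rows, 0 of the 9 genes passed an adjusted p of 0.05, against 0.14% of all rows (31 rows, with 0.0946% higher and 0.045% lower) and 0.315% of the brightest 10%. The lowest adjusted p among them was 0.316, for Pgam1. At an unadjusted p under 0.05, 1 of the 9 was higher and 0 were lower, against 3.55% of all rows higher and 4.17% lower.

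**Figure D1:**
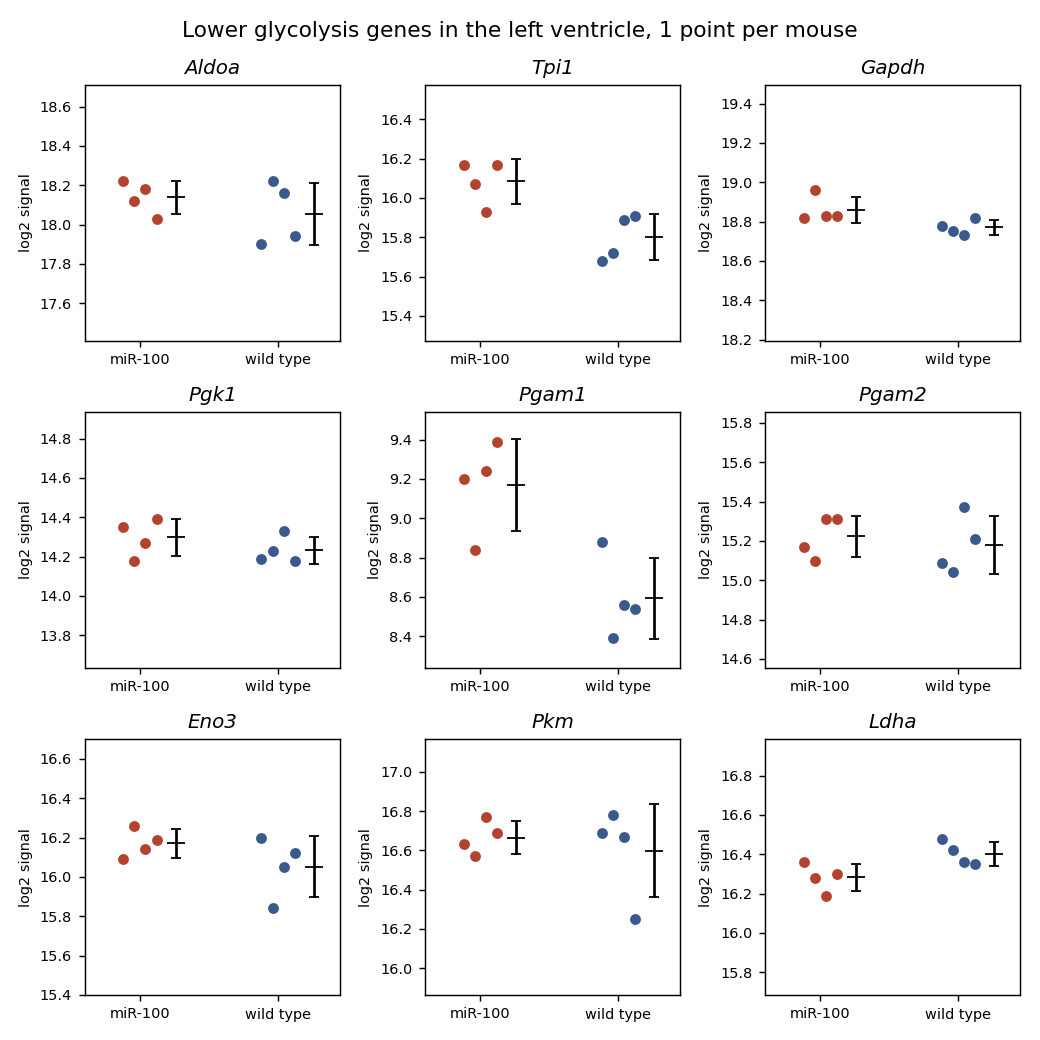
Log2 signal of the 9 measured lower glycolysis genes in each mouse, with miR-100 hearts on the left and wild type hearts on the right of each panel. Each point is 1 array, bars are the mean and SD of 4 arrays, and every panel spans the same log2 height, so Pgam1 shows the widest gap, with 3 of 4 miR-100 arrays above all wild type arrays, and Tpi1 the next.

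Aldoa encodes the aldolase of muscle and most other tissues. It had 18.22, 18.12, 18.18 and 18.03 in the miR-100 hearts, against 17.90, 18.22, 18.16 and 17.94 in the wild type hearts (log2 signal). The miR-100 values lay within the wild type range. The difference was 0.08 (SE 0.14, limma adjusted p = 0.942), and its 95% confidence interval ran from -0.22 to 0.39.

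Tpi1 encodes triosephosphate isomerase, which interconverts the products of aldolase. It had 16.17, 16.07, 15.93 and 16.17 in the miR-100 hearts, against 15.68, 15.72, 15.89 and 15.91 in the wild type hearts. Tpi1 was the 1 gene of the 9 whose groups did not overlap, a pattern with the miR-100 group higher that 2.21% of all rows and 3.87% of the brightest 10% showed. The gap between the lowest miR-100 array and the highest wild type array was narrow beside the SDs of 0.11 and 0.12. The difference was 0.29, a 1.22-fold higher signal with a 95% interval of 0.991 to 1.50, and it did not pass (SE 0.14, unadjusted p = 0.0599, limma adjusted p = 0.675).

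Gapdh encodes the dehydrogenase that oxidises glyceraldehyde phosphate and is widely used as a reference gene. Its level was 18.82, 18.96, 18.83 and 18.83 in the miR-100 hearts, against 18.78, 18.75, 18.73 and 18.82 in the wild type hearts. The lowest miR-100 value equalled the highest wild type value. Gapdh had the smallest spread of the 9 genes, with a residual SD of 0.05, and differed by 0.09 (95% interval -0.19 to 0.37, limma adjusted p = 0.928). The highest value in the table was 19.93, which 9 rows reached, and whether the scale is compressed at the level of Gapdh was not tested.

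Pgk1, on the X chromosome, encodes the phosphoglycerate kinase that makes the first ATP of the lower pathway. It had 14.35, 14.18, 14.27 and 14.39 in the miR-100 hearts, against 14.19, 14.23, 14.33 and 14.18 in the wild type hearts. The groups overlapped over most of their ranges. The difference was 0.07 (95% interval -0.22 to 0.35, limma adjusted p = 0.953).

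Pgam1 encodes the widely expressed phosphoglycerate mutase, known as the brain form, and had the largest difference of the 9 genes. It had 9.20, 8.84, 9.24 and 9.39 in the miR-100 hearts, against 8.88, 8.39, 8.56 and 8.54 in the wild type hearts. All but replicate 2 of the miR-100 arrays lay above every wild type array, and that replicate lay just under wild type replicate 1. The miR-100 hearts averaged 9.17 ± 0.23 and the wild type hearts 8.59 ± 0.21 (SD, n = 4 each). That is a 1.49-fold higher signal with a 95% interval of 1.16 to 1.91. The log2 difference of 0.58 (SE 0.16) ranked 279 of 22206 rows by unadjusted p (0.00398) and did not pass after adjustment (limma adjusted p = 0.316). Pgam1 was also the dimmest of the members' rows and had the widest spread, with a residual SD of 0.22.

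Pgam2 encodes the mutase of heart and skeletal muscle. It had 15.17, 15.10, 15.31 and 15.31 in the miR-100 hearts, against 15.09, 15.04, 15.37 and 15.21 in the wild type hearts. The wild type range enclosed the miR-100 range. The difference of 0.05 (95% interval -0.26 to 0.35, limma adjusted p = 0.972) was the smallest of the 9, and without wild type replicate 2 it was -0.0008.

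Eno3 encodes beta enolase, the striated muscle form. It had 16.09, 16.26, 16.14 and 16.19 in the miR-100 hearts, against 16.20, 15.84, 16.05 and 16.12 in the wild type hearts. Wild type replicate 2 was the lowest array, and without it the difference of 0.12 (95% interval -0.18 to 0.42, limma adjusted p = 0.909) was 0.05. Eno1b, a copy of the alpha enolase gene whose probes may also take up Eno1 transcripts, had 7.33, 7.15, 6.97 and 7.02 in the miR-100 hearts, against 6.65, 6.98, 6.91 and 6.86 in the wild type hearts. The groups overlapped by a single pair of arrays, and the difference of 0.27 did not pass (95% interval -0.05 to 0.58, limma adjusted p = 0.712).

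Pkm encodes the pyruvate kinase of muscle and most other tissues, whose M1 and M2 products differ by a spliced exon. The row cannot tell these products apart. It had 16.63, 16.57, 16.77 and 16.69 in the miR-100 hearts, against 16.69, 16.78, 16.67 and 16.25 in the wild type hearts. Wild type replicate 4 stood below every other array, and the difference of 0.07 (95% interval -0.26 to 0.40, limma adjusted p = 0.958) became -0.05 without it. Of the factors known to choose between the exons, 4 of 5 had a row and 0 passed the test, with a median difference of -0.08. Ptbp1, which favours the M2 exon, differed by 0.23 (limma adjusted p = 0.870) and the brightest row of Rbm4 by -0.42 (limma adjusted p = 0.696).

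Ldha encodes the lactate dehydrogenase subunit that predominates in skeletal muscle and was the 1 gene of the 9 with a difference below 0. It had 16.36, 16.28, 16.19 and 16.30 in the miR-100 hearts, against 16.48, 16.42, 16.36 and 16.35 in the wild type hearts. The miR-100 arrays other than replicate 1 lay below every wild type array. The spread was small in both groups, with SDs of 0.07 and 0.06. The difference of -0.12 (SE 0.13, 95% interval -0.40 to 0.16) did not pass (limma adjusted p = 0.898).

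The standard errors of the fit set what could have been called, and limma draws each row's spread toward that of all rows. Gapdh, with a residual SD of 0.05, had an SE of 0.13, and an SE of 0.07 with an intensity trend, where the spread follows brightness. The differences needed, given below, therefore depend on this setting. The residual SDs of the 9 genes ran from 0.05 to 0.22, and 7 of them lay below 0.18, the median of the brightest 10% of rows. With the standard errors of the 9 rows and the largest unadjusted p that passed in this table (6.02e-05), a member would have needed a difference of 0.75 to 0.96 on the log2 scale, or 1.68-fold to 1.94-fold, to pass. For the 8 genes other than Pgam1, every 95% interval lay between 0.757-fold and 1.50-fold.

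Averaged over the 9 genes, the level was 15.60 to 15.70 in the miR-100 arrays and 15.48 to 15.57 in the wild type arrays. These ranges do not overlap. Without Pgam1 and Tpi1, left out because their differences were the largest, the ranges were 16.50 to 16.53 in the miR-100 arrays and 16.41 to 16.52 in the wild type arrays, which describes the other 7 genes and is no test. Summed over the 9 genes, mostly Gapdh and Aldoa, the signal was 20.11 to 20.16 in the miR-100 arrays (log2 of the sum). In the wild type arrays it was 20.02 to 20.09, also without overlap. Neither the averages nor the sums were tested, and how often other sets of 9 rows lack overlap was not examined. Within a group the genes deviated to either side of their means by array. In miR-100 replicate 4, 7 of the 9 genes lay above their group mean, and in miR-100 replicate 2, 2 of the 9 did, with Gapdh and Eno3 above and Pgam1 lowest. In wild type replicate 2 Aldoa, Pkm and Ldha were above the wild type mean and the other 6 below it.

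**Figure D2:**
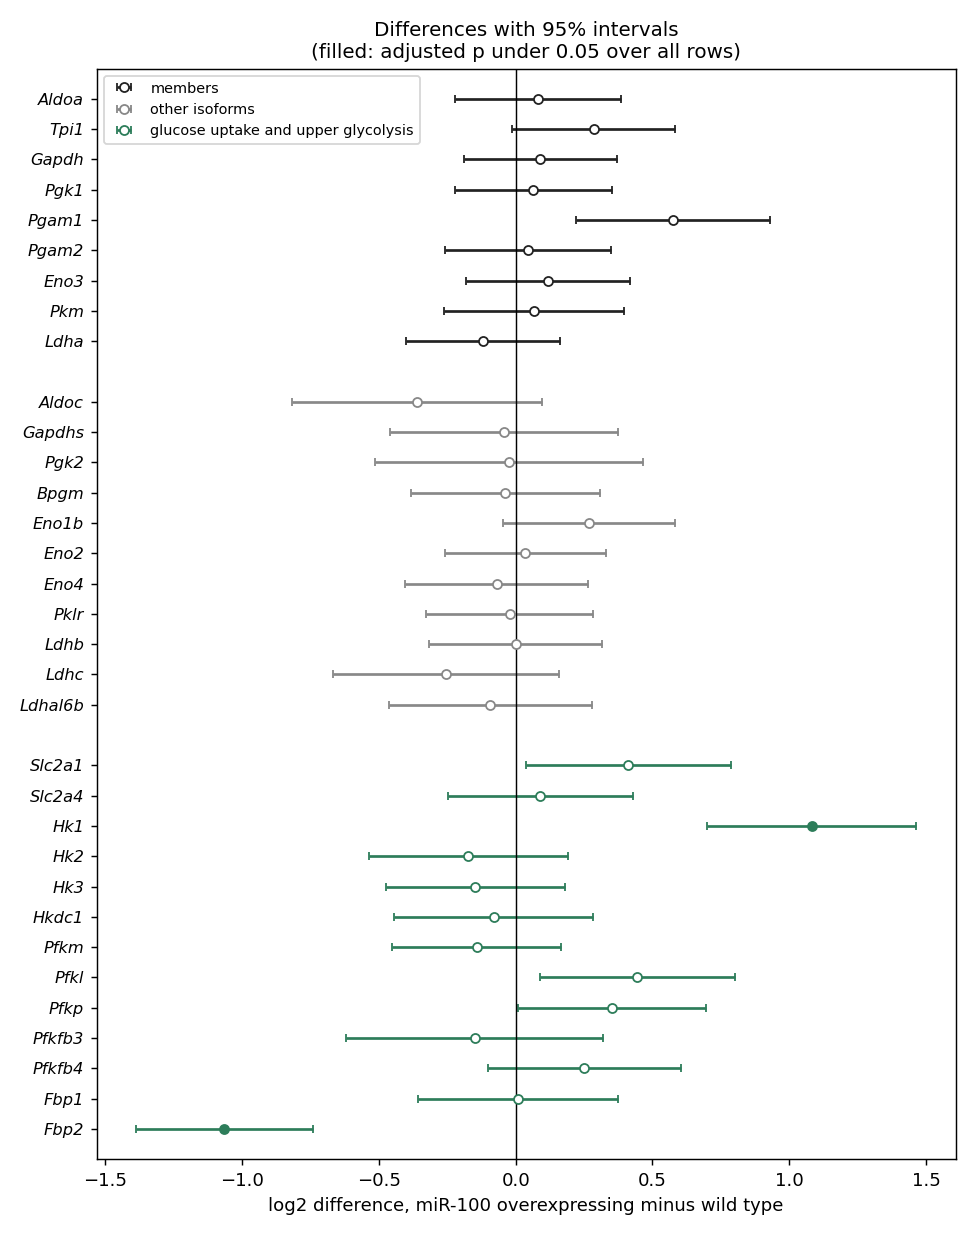
Log2 difference (miR-100 overexpressing minus wild type) with its 95% confidence interval for the 9 measured lower glycolysis genes, 11 other isoforms of the same steps and 13 genes of glucose uptake and upper glycolysis. Filled points passed an adjusted p of 0.05 over all rows, which held for Hk1 (higher) and Fbp2 (lower), and 0 of the 9 lower glycolysis genes did.

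The isoforms of each step were compared by how their difference on an array changed between the groups, since the brightness of separate rows depends on their probes and was not compared as a level. For phosphoglycerate mutase, Pgam1 minus Pgam2 was -5.97, -6.26, -6.07 and -5.92 in the miR-100 hearts, against -6.21, -6.65, -6.81 and -6.67 in the wild type hearts. All miR-100 arrays other than replicate 2 lay above every wild type array. The change was 0.53 (SE 0.15), with a two-sided exact permutation p of 0.0571 and 0.171 after Benjamini-Hochberg adjustment over the 4 pairs compared. The smallest p that 4 against 4 arrays allow is 0.0286, and a pair that reached it alone could not pass after this adjustment.

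For aldolase, Aldoa minus Aldoc was 15.08, 14.61, 14.12 and 14.63 in the miR-100 hearts, against 14.26, 14.11, 13.95 and 14.35 in the wild type hearts. The groups overlapped through miR-100 replicate 3. The change of 0.44 (SE 0.21, two-sided exact permutation p = 0.0857, 0.171 adjusted) rests on Aldoc, the brain form, whose row averaged 3.53 in miR-100 hearts and 3.89 in wild type hearts. Both means lie below the lower quartile of every array (4.11 to 4.23). Without miR-100 replicate 1 it was 0.29, and without miR-100 replicate 3 it was 0.61.

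For lactate dehydrogenase, Ldha minus Ldhb averaged 1.04 ± 0.16 in miR-100 hearts and 1.16 ± 0.24 in wild type hearts (SD, n = 4 each). Ldhb encodes the heart-type subunit, and its own difference was 0.00 (95% interval -0.32 to 0.32), with 15.12, 15.35, 15.30 and 15.21 in the miR-100 hearts against 15.12, 15.05, 15.44 and 15.37 in the wild type hearts. The change of -0.12 in the pair (SE 0.14, two-sided exact permutation p = 0.400, 0.533 adjusted) lay within the spread between arrays. Wild type replicates 1 and 2 were high in this pair and wild type replicates 3 and 4 low.

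For enolase, Eno3 minus Eno2 was compared in place of the pairs with Eno1, a choice made after Eno1 was found to have no row. It averaged 13.11 ± 0.11 in miR-100 hearts and 13.03 ± 0.18 in wild type hearts (SD, n = 4 each). The change was 0.08 (SE 0.10, two-sided exact permutation p = 0.543, also 0.543 adjusted). Eno2, the neuronal form, was dim at 3.06 in miR-100 hearts and 3.02 in wild type hearts.

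**Figure D3:**
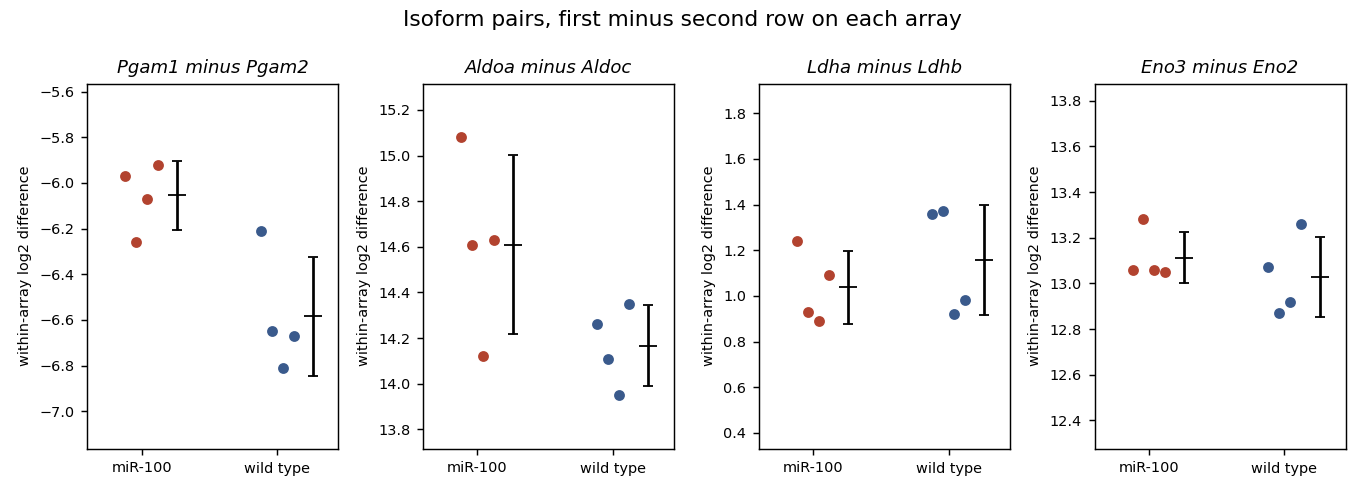
Within-array log2 difference between the rows of 4 isoform pairs, with miR-100 hearts on the left and wild type hearts on the right of each panel. Each point is 1 array, bars are the mean and SD of 4 arrays, and Pgam1 minus Pgam2 shows the clearest gap (a change of 0.53), with 1 miR-100 array below the highest wild type array.

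Of 11 other isoforms or relatives of these enzymes measured, 0 passed, with 2 above 0, 8 below 0, Ldhb at 0 and a median of -0.04. Rows of 5 of the 11 averaged below 4.23, the highest lower quartile among the arrays: Aldoc, Gapdhs, Eno2, Eno4 and Ldhc. Gapdhs and Ldhc, forms of the germ line in the testis, differed by -0.04 and -0.26, and the testis form Pgk2 by -0.03. Pklr, the pyruvate kinase of liver and red cells, differed by -0.02, and Bpgm, which makes bisphosphoglycerate in red cells, by -0.04. Eno4 and Ldhal6b differed by -0.07 and -0.09. The limma adjusted p of these rows ran from 0.712 (Eno1b) to 1 (Ldhb).

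The steps before aldolase held differences that passed. Of 17 genes of glucose uptake and upper glycolysis, 13 had a row, 1 was called higher and 1 lower, and the median difference was 0.01, beside 0.08 for the 9 lower glycolysis genes and -0.015 for all rows. Hk1, a hexokinase that traps glucose as its phosphate, was 14.25 ± 0.22 in miR-100 hearts and 13.17 ± 0.29 in wild type hearts (SD, n = 4 each, limma adjusted p = 0.0369). Fbp2, the muscle fructose bisphosphatase that opposes phosphofructokinase, was 8.81 ± 0.20 in miR-100 hearts and 9.87 ± 0.13 in wild type hearts (SD, n = 4 each, limma adjusted p = 0.0143). With each array left out, Hk1 passed in 2 of 8 fits, those without wild type replicate 1 or miR-100 replicate 2, with adjusted p of up to 0.132. Fbp2 passed in 4 of 8 and did not without wild type replicate 3 or miR-100 replicate 1, 3 or 4, with adjusted p of up to 0.0723 (limma). At an unadjusted p under 0.05, 4 of the 13 were higher and 1 lower, against 3.55% and 4.17% of all rows. The higher genes were Hk1, the glucose transporter gene Slc2a1 (0.41), and the liver and platelet phosphofructokinases Pfkl (0.45) and Pfkp (0.35). Of these higher genes Hk1 alone passed after adjustment. Pfkm, the muscle phosphofructokinase, differed by -0.14 and did not pass. The difference between the upper and the lower steps was not tested.

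The steps after pyruvate and the side branches gave 0 calls. Of 17 genes of pyruvate and lactate handling, 16 had a row, with 10 above 0 and a median of 0.04. The monocarboxylate carriers Slc16a7 and Slc16a3 differed by 0.71 (limma adjusted p = 0.174) and -0.45 (limma adjusted p = 0.506). Neither had overlap between the groups. Of all rows 2.21% were higher without overlap, and the share lower without overlap is not given here. Slc16a3 was dim, at 4.29 in miR-100 hearts and 4.74 in wild type hearts. Of 18 genes of the glycerol phosphate, serine, pentose phosphate, fructose and malate-aspartate routes, 16 had a row, with 11 above 0 and a median of 0.12. Rpia, which makes ribose phosphate, differed by 0.43 (limma adjusted p = 0.523) and the fructose kinase gene Khk by -0.18 (limma adjusted p = 0.858).

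Genes that hypoxia-inducible factor raises outside glycolysis were measured for all 15 listed, with 7 above 0, 8 below 0, a median of -0.03 and 0 calls. Kdm3a, a histone demethylase, differed by 0.53 (limma adjusted p = 0.337), and Ddit4, an inhibitor of mTOR signalling, by -0.96 (limma adjusted p = 0.467), with an SD of 0.29 in miR-100 hearts and 0.90 in wild type hearts. Of 13 transcription factors and coactivators known to act on glycolytic genes, 12 had a row and 0 passed, with a median of -0.03. Mlx, a partner of the glucose-sensing factors, differed by 0.17 and Ppargc1b, a mitochondrial coactivator, by -0.37 (limma adjusted p = 0.860 and 0.729).

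Markers of the cell types that a ventricle can hold were read beside these values, because fewer cells of a type and less RNA per cell cannot be told apart in whole tissue. Of the 9 heart muscle markers 0 passed. Their summed signal was 22.28 to 22.33 in the miR-100 arrays and 22.31 to 22.38 in the wild type arrays (log2 of the sum). The brightest rows in this sum lay at or near 19.93, the highest value in the table. Mb was 19.93 and Pln 19.64 in every miR-100 array, so the sum may not show a change in heart muscle content. Myl3, a ventricular myosin light chain, differed by -0.28 (limma adjusted p = 0.690). Its miR-100 arrays lay below every wild type array, a pattern whose share over all rows is not given here. None of the 6 fibroblast, 6 endothelial, 6 macrophage or 2 red cell markers measured passed, with medians of -0.01, -0.02, -0.01 and -0.13. Their summed signals were 17.78 to 17.99, 14.98 to 15.23, 13.00 to 13.44 and 7.75 to 8.50 in the miR-100 arrays. In the wild type arrays they were 17.70 to 17.91, 15.05 to 15.20, 12.68 to 13.40 and 7.68 to 8.55. Each pair of ranges overlapped, and the globin genes had no row here. The fibroblast sum is nearly all Dcn, which averaged 17.87 in miR-100 hearts and 17.75 in wild type hearts. Most of the endothelial sum is Cdh5 and Kdr, of the macrophage sum Lyz2 and of the red cell sum Slc4a1. The sums thus say little about the other markers. The lowest unadjusted p in each direction belonged to the fibroblast genes Lum (0.26) and Col1a2 (-0.37), the endothelial genes Vwf (0.18) and Tie1 (-0.20) and the macrophage genes Lyz2 (0.24) and Mrc1 (-0.22). Both red cell genes were below 0, and Alas2 (-0.20) had the lower p.

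Of the 7 smooth muscle and pericyte markers 0 passed, with 4 above 0, 3 below 0, a median of 0.03 and a summed signal of 15.15 to 15.81 in the miR-100 arrays and 14.85 to 15.40 in the wild type arrays. Acta2, smooth muscle actin, which stressed heart muscle cells can also make, differed by 1.11 (limma adjusted p = 0.203). It was higher without overlap, as were 2.21% of all rows. Tagln, another contractile gene of smooth muscle, differed by -0.19 (limma adjusted p = 0.864). Of 8 skeletal muscle markers 0 passed. Their summed signal was 13.95 to 14.18 in the miR-100 arrays and 13.93 to 14.34 in the wild type arrays. That sum is nearly all Ckm, which averaged 14.02 in miR-100 hearts and 14.05 in wild type hearts. The other rows averaged no more than 6.24 in either group. Tnni2 and Mylpf, of fast skeletal fibres, differed by 0.55 and -0.47 (limma adjusted p = 0.492 and 0.639). Of 4 atrial markers 0 passed, and their sum, which is nearly all Nppa, was 18.07 to 18.76 in the miR-100 arrays and 17.04 to 17.54 in the wild type arrays. Nppa, the atrial natriuretic peptide that loaded ventricles also make, differed by 1.04 (limma adjusted p = 0.0616). Myl7, the atrial light chain, averaged 3.83 in miR-100 hearts and 4.23 in wild type hearts. The part of these cell types in the values of the glycolysis genes was not tested.

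The rows whose pattern most resembled that of Pgam1 over the 8 arrays were Syne1, Olfr39, Slc17a7, Adi1 and Zbtb41, with Pearson r between 0.958 and 0.976. After the group means were subtracted the closest were Ippk, Snw1, Hpx, Plaur and Olfr131, with r between 0.952 and 0.993. The lists share no gene, and with 8 arrays and 22206 rows high values of r are given as a description only.

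**Figure D4:**
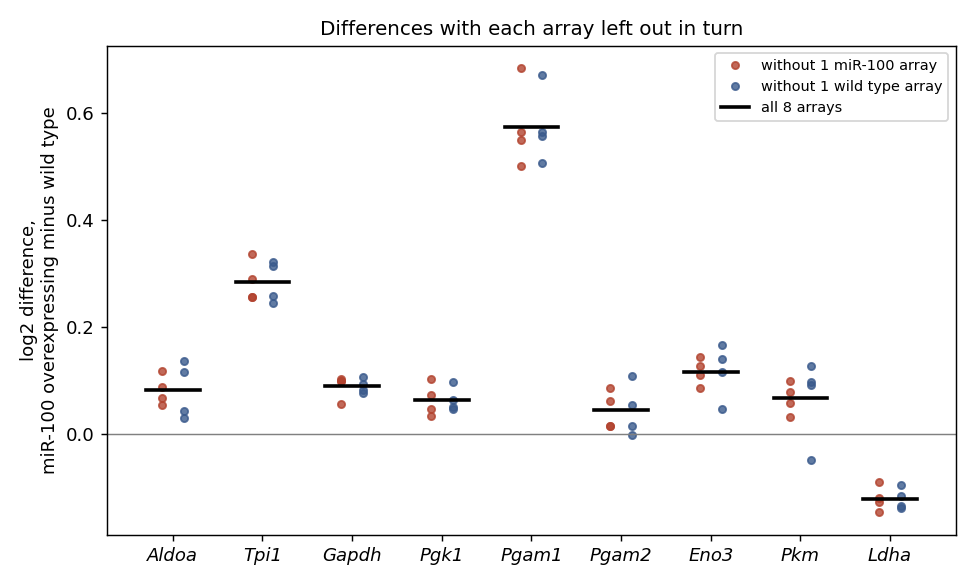
Log2 difference (miR-100 overexpressing minus wild type) of the 9 measured genes with all 8 arrays (black line) and with each array left out in turn (points, by the group of the array left out). Pgam1 ran from 0.50 to 0.68 and Tpi1 from 0.25 to 0.34, while Pgam2 and Pkm each crossed 0 in 1 fit.

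With each array left out in turn, 0 of the 9 genes passed in any of the 8 fits. Pgam1 ran from 0.50 without miR-100 replicate 4 to 0.68 without miR-100 replicate 2, and its lowest limma adjusted p in those fits was 0.267. Tpi1 ran from 0.25 without wild type replicate 1 to 0.34 without miR-100 replicate 3. Without wild type replicate 2 Pgam1 differed by 0.51 (limma adjusted p = 0.449). Aldoa was lowest, at 0.03, without wild type replicate 1 and highest, at 0.14, without wild type replicate 2, and Pgk1 ran from 0.03 without miR-100 replicate 4 to 0.10 without miR-100 replicate 2.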

How the data were processed

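Each deposited value is the log2 signal of a transcript cluster, a group of probes for 1 transcribed region. The authors made these values with Transcriptome Analysis Console (version 4.0 in the submitters' processing notes). How probes were summarized and arrays normalized, the genome build and the probe sequences are not given in the sources used here. RNA was extracted with TriPure and labelled with the Affymetrix WT Plus kit, per the labels' protocols. Signal and the number of arrays, not read depth, limit the precision.

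Symbols came from the platform annotation, which named 19572 of 22206 rows with 1 gene, and the brightest row stood for a gene with several. Several of these genes, Gapdh foremost, have processed pseudogenes whose transcripts the probes may also take up. The values were fitted as deposited with limma 3.58.1 in R 4.3.3 (linear models, empirical Bayes, no covariates). Benjamini-Hochberg adjustment ran over the 22206 rows, and an adjusted p under 0.05 was called. Isoform pairs were compared by a two-sided exact permutation test over 70 assignments of the arrays. Litter and collection time are not stated, and the p-values reflect no more than the spread among these arrays. The fit was tested on 10 simulated tables of 22206 rows with 200 changed: it recovered 5.30% of changes of 0.5 (log2), 64.0% of changes of 1 and 98.2% of changes of 2, with 4.17% of calls false. The changed rows were drawn from all rows, so these rates need not hold for the members. More changed rows also loosen the adjusted threshold, and recovery may be lower in the real table, where 31 rows passed.

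The genes and lists were chosen with earlier results of these data known. The text names all members and other isoforms. From each further list it describes, it names genes that passed and the lowest unadjusted p in a direction, and for the lowest-p member the 5 most similar rows. Pfkm, Pfkl, Pfkp and Slc2a1, and the genes named for their share of a summed signal, were named after their values were seen. The alternatives were quantile normalization, median centring, an intensity trend, robust moderation, array weights, leaving out rows under the 25th or the 50th percentile by mean, named rows alone, a replicate block, a threshold of 0.10 and leaving out each array. Same-numbered arrays of the groups did not deviate together (correlations of -0.06 to 0.066 over all rows). The labels do not say whether same-numbered mice were paired, and these correlations cannot settle it.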

Additional observations from a re-analysis of the deposited data

Results flagged for a closer look

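Among 48 sets of 4 values (9 members, 11 other isoforms and 4 isoform pairs in both groups), 3 held a value whose gap to the nearest other array exceeded Dixon's 95% critical share of the set's range, and chance gives about 1 in 20 such sets. Gapdh in miR-100 replicate 2 was 18.96, against 18.82 to 18.83 in the other miR-100 arrays, and without that array Gapdh differed by 0.06. Pklr in miR-100 replicate 3 was 4.09, against 4.36 to 4.39 in the others. Eno3 minus Eno2 in miR-100 replicate 2 was 13.28, against 13.05 to 13.06 in the others, and the change in this pair was 0.03 without it.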

How the results depend on the processing

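Across 17 alternative fits the 9 members gave 153 differences, of which 0 passed, and the lowest limma adjusted p was 0.179, for Pgam1 among rows at or above the 50th percentile, where fewer rows are tested. At a threshold of 0.10 the count of members called was also 0. Of the 153 differences, 2 changed sign, for Pgam2 and Pkm, both near 0. With each array left out, Pgam2 ran from -0.0008 (without wild type replicate 2) to 0.11 and Pkm from -0.0483 (without wild type replicate 4) to 0.13. The change of Pgam1 minus Pgam2 ran from 0.46 to 0.66, of Aldoa minus Aldoc from 0.29 to 0.61, of Ldha minus Ldhb from -0.20 to -0.05 and of Eno3 minus Eno2 from 0.03 to 0.16, with no adjusted p under 0.114. In each of those fits a pair at the smallest possible p could not have passed on its own after adjustment. With the replicate block Pgam1 had a limma adjusted p of 0.366, and 0 of the 9 members passed. Under the block Hk1 and Fbp2 had limma adjusted p of 0.0548 and 0.0555, and both passed in the other 8 alternatives that kept all arrays, which were run for them after seeing the data. The exact sign-flip test over the 4 same-numbered pairs of arrays gave p = 0.125 for Pgam1 minus Pgam2. That is the smallest p it allows, so none of the 4 isoform pairs could pass under the block. The listed pairs of Eno1 with Eno3 and with Eno2 were not run, since Eno1 has no row here.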
